A study of Mus musculus with 12 samples.

Results

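Transcript levels of cultured trigeminal ganglion (TG) neurons that had received miR-324 were compared with those of neurons that had received scramble miRNAs. The comparison used 3 arrays titled miR-324 and 3 titled scramble miRNAs, 6 of the 12 arrays of the series, and all 19572 probes paired with 1 gene symbol. TG neurons carry touch, pain and temperature from the head. They came from mice, were grown as a primary culture on laminin and were transfected with miR-324 or with scramble, a control small RNA. The other 6 arrays, from cells given miR-21 or miR-34a, enter through the shared estimate of the spread and through comparisons with miR-324. They also help set the terms of fits with blocks, a covariate or array weights, and so can shift the differences of those fits. Strain, age, sex, dose, time after transfection and the arm of miR-324 are not given in the labels. Nor is it stated whether the 3 arrays of a group are 3 cultures or 3 animals, and p-values then reflect the spread among these arrays, possibly a technical one.

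The arrays are called scramble 1, 2 and 3 and miR-324 1, 2 and 4 here. The numbers of the miR-324 arrays, scramble 1 and scramble 2 are in their titles, while scramble 3 is a name given here because its title repeats the number 1. The titles of scramble 3 and miR-324 2 share a suffix and the word mimic. These 2 arrays form a pair, 1 against 1, whose difference is given beside each gene. Scramble 1 and scramble 2 share another suffix, and miR-324 1 and miR-324 4 carry none. What the suffixes stand for is not given in the labels. The scramble and miR-324 groups therefore share a suffix only through the pair.

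miRNAs are short RNAs that, bound to an Argonaute protein, pair with messenger RNAs and lower their stability or translation. Pairing is led by the seed, bases 2 to 8 of the mature miRNA, so a transfected miRNA is usually followed through a modest loss of transcripts with matching sites. Published work on miR-324 in other cells names the Hedgehog pathway genes Smo and Gli1 as targets of its 5p arm and the potassium channel gene Kcnd2 as a neuronal target of the same arm.

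Both mature arms of mouse miR-324 are shown because the labels leave the arm unstated, with the seed in capitals, 5′ to 3′, from RefSeq on GRCm38.p6.
mmu-miR-324-5p: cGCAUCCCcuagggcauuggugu
mmu-miR-324-3p: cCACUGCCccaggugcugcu
mmu-miR-34a-5p: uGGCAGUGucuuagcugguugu
The 5p arm lies at chr11:70012060-70012082 and the 3p arm at chr11:70012095-70012114, both on the plus strand. The hairpin, chr11:70012043-70012131, lies within the bounds of Acadvl. Each miR-324 seed was held by 1 mature miRNA of the mouse table, so neither arm shares its seed with another listed miRNA. Another group of this series received miR-34a, whose arm the labels do not state either. The third sequence is its 5p arm, at chr4:150068473-150068494, and the seed, GGCAGUG, is the reverse complement of the seed of miR-324-3p, CACUGCC. Sites for either seed in 3′ untranslated regions were not analysed here.

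The array signals are log2 values, on which a difference of 1 is 2-fold. They were normalized together, and median signals of the 6 arrays lay between 5.91 and 6.05. Probes of olfactory and vomeronasal receptors, 1414 in all, served as a guide to the floor. Their median was 3.51 to 4.02 in the 6 arrays and their 95th percentile 4.97 to 5.71, and values up to that percentile are called the floor range here. Over these probes miR-324 exceeded scramble by a median of 0.31, and by 0.08 within the pair. Near this floor the fold of a gene can be understated, and a rise with miR-324 can include this offset.

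Scramble 3 did not sit with the other scramble arrays. Across all genes, which are not independent replicates, its signals correlated at r = 0.987 with miR-324 2 and 0.986 with miR-324 4, against 0.968 with scramble 1 and 0.969 with scramble 2. Scramble 1 and 2 correlated at 0.992. Scramble 3 differed at least 2-fold from the mean of scramble 1 and 2 at 12.5% of probes, and from its pair partner at 5.11%. On the other side, miR-324 1 differed at least 2-fold from the mean of miR-324 2 and 4 at 11.9% of probes. Each result is therefore given with scramble 3, without it where that changes a call, and within the pair.

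Neuronal markers were high in all 6 arrays, as the label calls for, and so were markers of other cells. Snap25, a synaptic fusion protein, read between 12.09 and 16.20. Median signals of 13 endothelial markers were 9.59, 9.98 and 11.92 in scramble 1, 2 and 3, against 13.82, 12.15 and 12.37 in miR-324 1, 2 and 4. The 16 macrophage markers gave 7.62, 7.84 and 4.88 in scramble, against 4.74, 4.55 and 4.64 in miR-324. Among pituitary hormone genes, Prl, encoding prolactin, read 3.42, 4.83 and 14.92 in scramble, against 14.98, 14.26 and 15.17 in miR-324. Scramble 3 thus stood with the miR-324 arrays for macrophage and prolactin signal, and between the others for endothelial signal. The Y-linked gene Eif2s3y read 2.93, 2.27 and 2.13 in scramble, against 7.88, 2.96 and 5.13 in miR-324, so the arrays also differed in the Y-linked RNA they held. In bulk RNA, fewer cells of a type and less RNA per cell cannot be told apart. The part of these markers in the results below was not tested, except where a value without an array or within the pair is given.

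**Figure D1:**
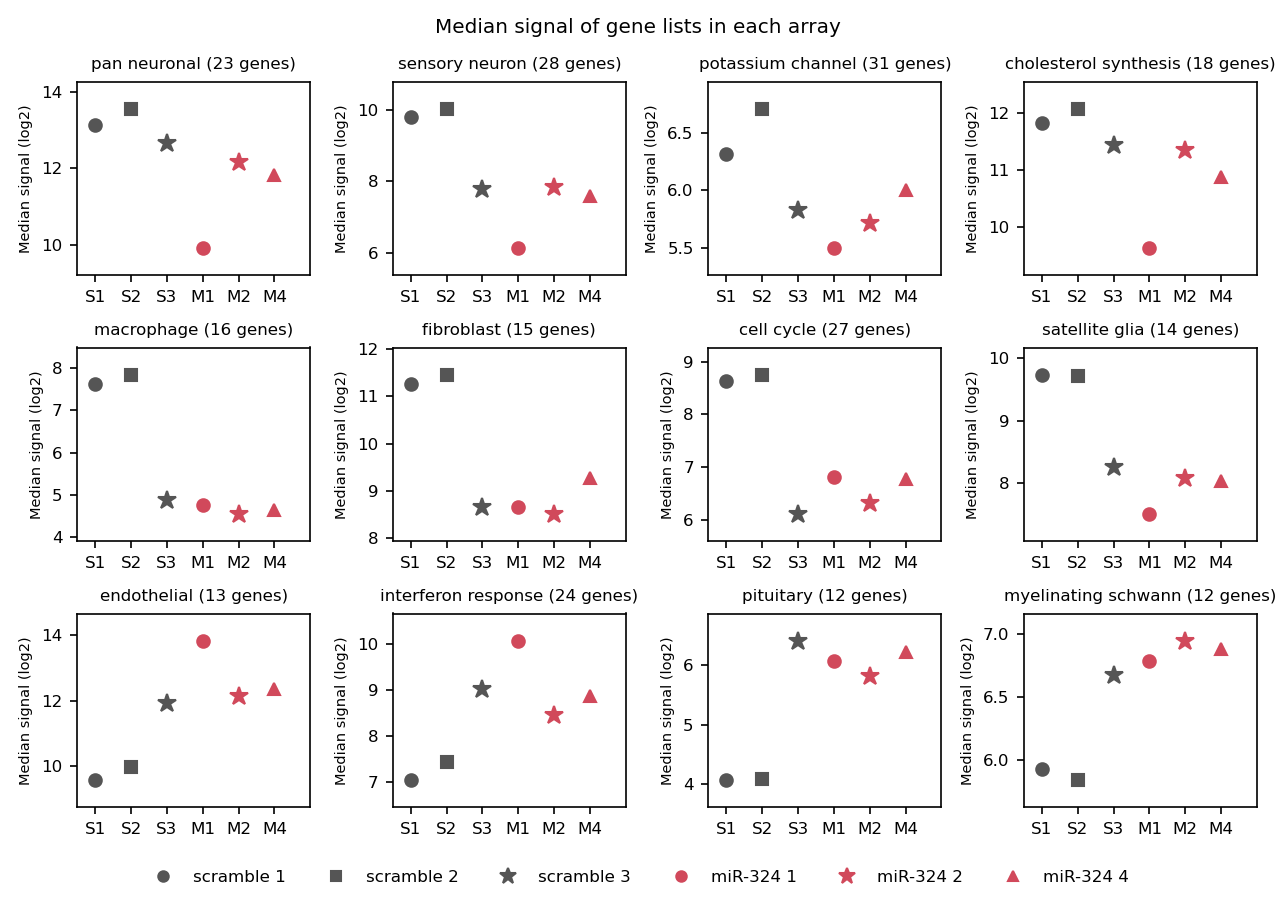
Median log2 signal (vertical axes, each with its own range) of 12 gene lists in the 3 scramble arrays (S1 to S3, grey) and the 3 miR-324 arrays (M1, M2, M4, red); stars mark the pair with a shared title suffix. The star of scramble 3 lies near the miR-324 arrays for macrophage, fibroblast, cell cycle and pituitary genes, and miR-324 1 stands apart for neuronal and cholesterol synthesis genes.

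No gene was called between miR-324 and scramble. limma placed 0 of 19572 named probes (0%) under an adjusted p of 0.05, and the lowest adjusted p was 0.309. At an unadjusted p under 0.05 there were 2877 (14.7%), of which 1587 were higher (8.11%) and 1290 lower (6.59%) with miR-324. The 3 miR-324 arrays did not overlap the 3 scramble arrays at 3892 probes (19.9%), with 2464 higher (12.6%) and 1428 lower (7.30%). Over all genes the median difference was 0.09, and 58.3% of probes were higher in the mean. Within the pair the median was 0.03, 52.9% of probes were higher, and 1001 (5.11%) differed at least 2-fold, 581 upward (2.97%) and 420 downward (2.15%).

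The count turned on scramble 3. Without it limma called 383 genes (1.96%), 124 higher (0.634%) and 259 lower (1.32%), while leaving out any other of the 6 arrays gave 0. Scramble 1 and 2 share a suffix that no miR-324 array carries. In any value without scramble 3, suffix and miR-324 therefore cannot be told apart. When arrays were weighted by how well they matched their group, 2589 were called, and 381 genes were called both ways. In that fit scramble 3 had a weight of 0.40 and miR-324 1 of 0.45, the lowest of the 6, against 2.31 for scramble 1. With the title suffix as a fixed or random block 0 were called. The suffix term of these fits rested on all 12 arrays, not only on the 6 compared.

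The genes described first are the 10 higher and 10 lower with the smallest unadjusted p among those whose groups did not overlap. They were picked for this difference, so the group values are a description. The adjusted p of all 20 was 0.309, and the SE is that of the fit.

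Among the higher genes, Notch4, a Notch receptor best known from endothelium, had the smallest p. It read 4.89, 4.95 and 5.78 in scramble 1, 2 and 3, and 7.16, 7.25 and 6.74 in miR-324 1, 2 and 4. The means were 5.21 ± 0.50 and 7.05 ± 0.27 (SD, n = 3 each), a difference of 1.84 (SE 0.27). The pair difference was 1.47. Every scramble value lay near the floor range and every miR-324 value above it. Efnb2, encoding ephrin-B2, a ligand of arterial endothelium and of guided axons, was bright in all arrays. It read 12.50, 12.15 and 13.60 in scramble, and 14.40, 14.14 and 14.33 in miR-324, a difference of 1.54 (SE 0.34) with 0.54 within the pair. Scramble 3 lay between the groups for both genes, as it did for the endothelial markers above, whose part in these differences was not tested.

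Ctdsp1, a nuclear phosphatase that acts with the repressor REST on neuronal genes, showed the largest difference of the higher genes. Its signal was 10.81, 11.11 and 10.68 in scramble, and 13.70, 12.64 and 12.94 in miR-324. The difference was 2.23 (SE 0.40), a 4.68-fold level, and 1.96 within the pair. Here scramble 3 was the lowest of the 6 arrays. Retsat, encoding retinol saturase, read 6.77, 6.46 and 6.71 against 7.91, 7.60 and 8.08, with scramble 3 between the other scramble arrays. Its difference was 1.22 (SE 0.23), and 0.89 within the pair.

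Shank3, a scaffold of the postsynaptic density, read 4.78, 5.05 and 5.45 in scramble, and 6.98, 7.48 and 6.92 in miR-324. It differed by 2.03 (SE 0.39) between groups and by 2.03 within the pair. Dgat1, which makes triglyceride from diacylglycerol, read 4.22, 4.71 and 4.41 against 5.60, 6.16 and 5.77. Its difference was 1.40 (SE 0.27), and 1.75 within the pair. For both genes the pair differed about as much as the groups, or more. All scramble values of Dgat1 lay under the 95th percentile of the floor probes.

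Kmt2d, a histone H3 lysine methyltransferase, read 6.42, 6.47 and 7.39 in scramble, and 8.54, 8.08 and 8.46 in miR-324. The group difference of 1.60 (SE 0.33) came to 0.69 within the pair. Phactr4, a regulator of actin and protein phosphatase 1, read 8.78, 8.84 and 9.53 against 11.32, 10.14 and 10.54. It differed by 1.62 (SE 0.34), and by 0.61 within the pair. In both genes scramble 3 was the highest scramble array. Nod2, a sensor of bacterial cell wall peptides, read 4.30, 4.41 and 5.02 against 6.27, 5.57 and 5.92. It gave 1.34 (SE 0.29) between groups and 0.55 in the pair, with all scramble values inside the floor range. Slc17a3, an organic anion transporter, read 4.04, 3.42 and 3.78 against 5.57, 4.52 and 4.98. Its group difference was 1.28 (SE 0.28), its pair difference 0.74, and all its values lay inside the floor range.

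Among the lower genes, Tpmt, encoding thiopurine methyltransferase, had the smallest p. It read 8.31, 8.29 and 7.99 in scramble 1, 2 and 3, and 6.64, 7.07 and 7.09 in miR-324 1, 2 and 4. The means were 8.20 ± 0.18 and 6.93 ± 0.25 (SD, n = 3 each), a difference of -1.26 (SE 0.23), and -0.92 within the pair. Both groups were tight, and the gap between them exceeded the range within either. Plcd4, a phospholipase C, had the largest difference of the lower genes. It read 7.96, 7.92 and 6.90 against 4.97, 5.01 and 5.81. That is -2.33 (SE 0.42) between groups and -1.89 within the pair, with the miR-324 arrays near the floor range.

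A pair of Rab small GTPases, which steer vesicle traffic, was among the lower genes. Rab39 read 6.91, 6.40 and 6.17 in scramble, and 5.13, 4.94 and 5.10 in miR-324, a difference of -1.44 (SE 0.31) with -1.23 within the pair. Rab35, of endocytic recycling, read 11.28, 12.10 and 11.02 against 9.94, 10.30 and 10.03, a difference of -1.38 (SE 0.30) with -0.72 within the pair. The lowest scramble array was scramble 3 for each, and all miR-324 values of Rab39 lay inside the floor range. Tmem74, a lysosomal membrane protein linked to autophagy, read 9.24, 9.96 and 8.30 against 6.59, 6.99 and 7.31. It differed by -2.20 (SE 0.48), and by -1.31 within the pair.

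Aptx, encoding aprataxin of DNA strand-break repair, read 9.10, 9.33 and 8.75 in scramble, and 8.05, 7.89 and 8.03 in miR-324. It differed by -1.07 (SE 0.23), and by -0.86 within the pair. Ctps2, a CTP synthase, read 10.67, 11.12 and 10.52 against 9.72, 9.86 and 9.96, a difference of -0.92 (SE 0.21) with -0.66 within the pair. In both, the 3 miR-324 arrays lay closer together than the 3 scramble arrays. Pla2g6, a calcium-independent phospholipase A2, read 6.79, 7.37 and 6.96 against 5.66, 6.39 and 5.71, with -1.12 (SE 0.24) between groups and -0.57 in the pair. H4c9, a histone H4 gene whose near-identical copies a probe may not tell apart, read 9.21, 9.47 and 9.13 against 7.77, 8.32 and 7.38. It differed by -1.45 (SE 0.31), and by -0.81 within the pair. Tfec, a transcription factor known from macrophages, read 5.41, 5.13 and 4.61 against 3.68, 3.55 and 3.98, with -1.31 (SE 0.30) and -1.06 within the pair. Its miR-324 values were inside the floor range, and the macrophage medians given above moved the same way.

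All 20 genes had the same direction within the pair as between the groups, and 8 of them differed at least 2-fold there. Scramble 3 and miR-324 2 are in both measures, and the rule asked that groups not overlap, so the direction follows from the choice of genes. Without scramble 3, where suffix and group cannot be told apart, 17 of the 20 passed the threshold. The exceptions were Slc17a3, H4c9 and Pla2g6. With array weights all 20 passed.

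**Figure D2:**
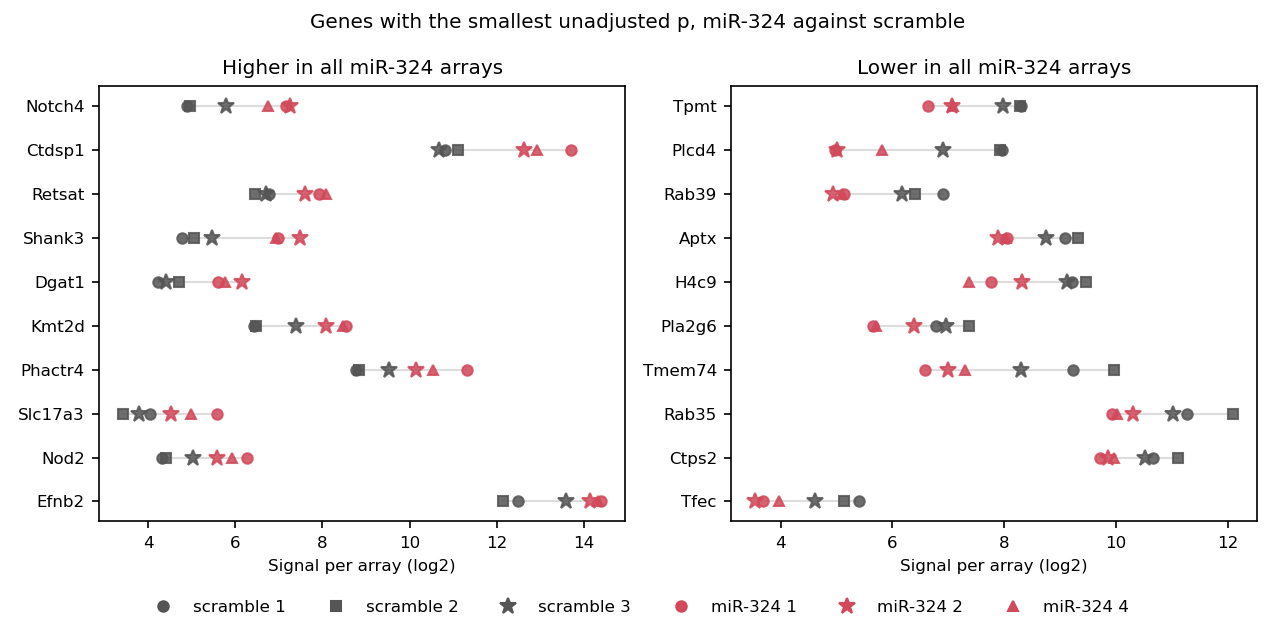
Log2 signal of each array (horizontal axes) for the 10 higher and 10 lower genes with the smallest unadjusted p among genes whose groups did not overlap; grey marks are scramble, red marks miR-324, stars the pair with a shared title suffix. The grey star of Kmt2d, Efnb2 and Plcd4 lies toward the red marks, while that of Ctdsp1 and Retsat lies among the grey ones.

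Reported miR-324 targets were not lower as a group in the mean, and the sign of their median changed with the setting. Of the 12 measured, 6 were higher and 6 lower in the mean, with a median difference of 0.04, against 0.09 for all genes. Within the pair 8 were lower and 4 higher, against 46.3% of all probes lower, with a median of -0.14. The group median was -0.0014 after quantile normalization again, -0.05 with bright probes only and -0.08 with the suffix as a fixed block. It was 0.026 without scramble 3 and 0.124 without miR-324 2. None passed the test, and 2 were lower at an unadjusted p under 0.05, against 6.59% of probes.

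Gli1, the Hedgehog-induced transcription factor, read 5.62, 4.89 and 5.93 in scramble 1, 2 and 3, and 6.29, 5.73 and 6.19 in miR-324 1, 2 and 4. Its difference was 0.59 (SE 0.29, limma adjusted p = 0.358), and -0.20 within the pair, so the groups overlapped and the pair pointed the other way. Smo, the membrane protein that starts Hedgehog signalling inside the cell, read 6.32, 6.73 and 6.62 against 6.61, 6.31 and 6.60. It differed by -0.05 (SE 0.24, limma adjusted p = 0.933), and by -0.31 within the pair, and its sign turned after quantile normalization again and after centring. Kcnd2, a potassium channel subunit of the A-type current, read 3.49, 3.31 and 3.22 against 3.51, 3.33 and 3.57. All its values lay inside the floor range, where a loss cannot be seen on these arrays.

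The reported targets with an unadjusted p under 0.05 were Ets1, Mtfr1 and Mgat3. Ets1, a transcription factor abundant in endothelium and lymphocytes, was higher. It read 11.53, 11.42 and 12.39 in scramble, and 13.24, 13.02 and 12.85 in miR-324, with 1.26 (SE 0.40, limma adjusted p = 0.309) between groups and 0.63 in the pair. Mtfr1, a regulator of mitochondrial fission, read 10.97, 11.58 and 10.48 against 10.79, 10.13 and 9.66. It was lower, at -0.82 (SE 0.33) in the mean and by -0.35 in the pair, though the groups overlapped. Mgat3, which adds the bisecting sugar to N-glycans, read 6.16, 6.37 and 5.45 against 4.46, 5.03 and 5.35. It gave -1.05 (SE 0.42), and -0.42 in the pair, and its groups did not overlap. All its miR-324 values lay inside the floor range.

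Hedgehog pathway genes showed no common direction. Of 19 measured, 8 were higher and 11 lower in the mean, with a median of -0.04, and -0.02 within the pair. The median was 0.04 after quantile normalization again and 0.02 after centring. At an unadjusted p under 0.05 stood 3 higher and 1 lower, against 8.11% and 6.59% of probes. The higher ones were Disp1, which releases the ligand, Cdon, a co-receptor, and Kif7, which works with the Gli factors in the cilium. Disp1 read 7.58, 7.73 and 7.66 in scramble, and 8.99, 8.64 and 8.69 in miR-324, so the groups stood well apart. Its difference was 1.12 (SE 0.50, limma adjusted p = 0.334), and 0.98 within the pair. Cdon gave 0.64 and 0.47 in the pair. Kif7 gave 1.07 and 0.40 in the pair, the former figure resting largely on 5.64 in miR-324 1, a value inside the floor range. Gli3, the factor that mostly represses when the pathway is off, read 7.15, 6.50 and 6.26 against 5.66, 5.85 and 5.77. It differed by -0.88 (SE 0.30, limma adjusted p = 0.309), and by -0.41 in the pair. The receptor Ptch1, itself a Hedgehog target, read 8.88, 9.00 and 8.20 against 9.64, 7.90 and 8.79, so the groups overlapped.

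**Figure D3:**
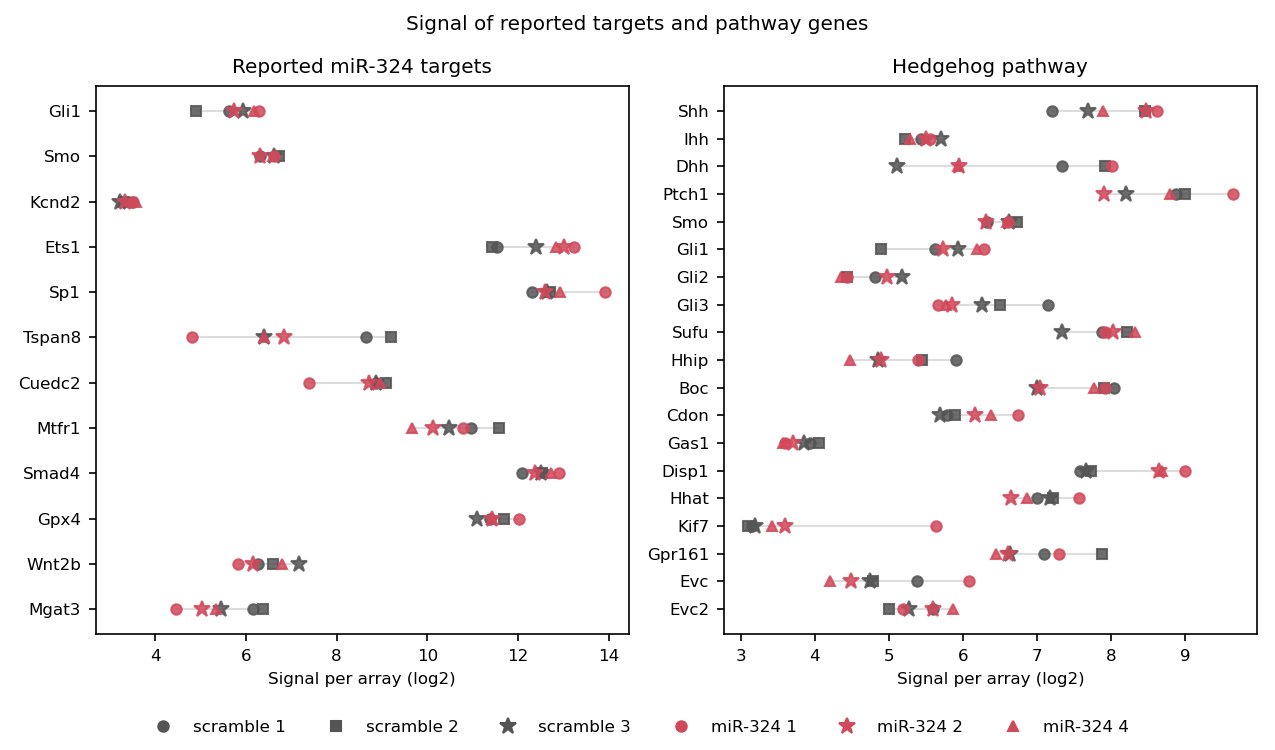
Log2 signal of each array (horizontal axes) for 12 reported miR-324 targets and 19 Hedgehog pathway genes; grey marks are scramble, red marks miR-324, stars the pair with a shared title suffix. Most genes show grey and red marks interleaved; Ets1 and Disp1 have all red marks to the right of the grey ones, and Gli3 and Mgat3 all to the left.

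Neuronal transcripts were lower in the mean, and the pair held little of that difference. All 23 pan-neuronal genes were lower, against 41.6% of all probes, with a median of -1.64. The groups did not overlap at 14 of them, against 7.30% of probes in that direction, and 6 had an unadjusted p under 0.05, against 6.59%. None passed the adjusted threshold. The median signals were 13.13, 13.54 and 12.65 in scramble, against 9.94, 12.16 and 11.83 in miR-324. The array of miR-324 1 was far below the rest, and without it the median difference was -0.96. Within the pair it was -0.33, with 18 of 23 lower, against 46.3% of all probes. With the title suffix as a fixed block the direction turned, to a median of 0.36, and Snap25 gave 0.013. Against miR-21 and miR-34a together the list's median was -0.46. Its median signals were 11.29, 11.33 and 11.37 in miR-21, and 13.44, 13.22 and 9.78 in miR-34a.

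Snap25 shows the pattern, at 16.02, 16.20 and 15.00 in scramble, and 12.09, 14.74 and 14.54 in miR-324. The difference was -1.95 (SE 0.83, limma adjusted p = 0.322), and -0.26 within the pair. Stmn2, a microtubule regulator of growing axons, read 16.47, 16.74 and 16.00 against 11.99, 15.54 and 15.50. Map2, of dendritic microtubules, stayed between 10.61 and 11.29 in all 6 arrays. The groups did not overlap for Snap25 and Stmn2, yet miR-324 2 and 4 lay within 0.5 of scramble 3 in both. Endothelial markers ran opposite to this list: in miR-324 1 the endothelial median was at its highest, 13.82, where the neuronal median was at its lowest. The macrophage and fibroblast medians of miR-324 1 did not stand apart from those of miR-324 2 and 4.

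Sensory neuron genes gave a median of -1.67, and -0.06 within the pair. Of 28 measured, 25 were lower, 12 of them at an unadjusted p under 0.05, against 6.59% of probes. Without miR-324 1 the median was -1.04, and with the suffix as a fixed block 0.12. Trpm8, the cold-sensing channel, read 8.56, 9.23 and 6.36 in scramble, and 5.46, 5.71 and 5.95 in miR-324. It differed by -2.34 (SE 0.72, limma adjusted p = 0.309), and by -0.65 in the pair. It was the only list member called without scramble 3. Tac1, the gene of substance P, read 13.60, 13.90 and 11.84 against 8.75, 11.36 and 10.78, giving -2.82 and -0.48 in the pair. The heat channel gene Trpv1 read 7.78, 7.94 and 5.53 against 3.75, 5.99 and 5.97, with the pair at 0.46, so here the pair ran the other way. Mrgpra3, an itch receptor gene, was the member higher at an unadjusted p under 0.05, at 4.32, 4.21 and 3.87 against 4.71, 4.93 and 4.73, all inside the floor range.

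Ion channel genes followed the same shape. Potassium channel genes gave a median of -0.75 over 31 measured, with 25 lower, and 0.11 within the pair, with 12 lower. Sodium and calcium channel genes gave -0.50 over 23, and 0.00 in the pair. With the suffix as a fixed block these medians were 0.06 and 0.43. Kcnip1, a subunit that binds the Kv4 channels to which Kcnd2 belongs, read 8.44, 9.36 and 7.28 in scramble, and 5.50, 6.20 and 6.96 in miR-324. It differed by -2.14 (SE 0.65, limma adjusted p = 0.309), and by -1.08 within the pair. Kcnk2, a background potassium channel, read 6.32, 6.59 and 6.56 against 5.50, 5.33 and 6.16, with -0.83 and -1.23 in the pair. Unlike the list, these 2 genes kept a difference within the pair.

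Genes of adrenergic neurons were low throughout. Th, the rate-limiting enzyme of catecholamine synthesis, read 5.98, 6.56 and 5.44 in scramble, and 5.60, 5.35 and 4.61 in miR-324. It differed by -0.81 (SE 0.45, limma adjusted p = 0.405), and by -0.09 in the pair. Dbh, which makes noradrenaline, read 4.67, 4.77 and 5.18 against 3.69, 4.33 and 5.04, giving -0.52 (SE 0.41, limma adjusted p = 0.543) and -0.85. Dbh sat inside the floor range in every array compared. Th lay above that range in scramble and inside it in miR-324, and neither gene was higher with miR-324. Of 13 adrenergic and sympathetic genes 8 were higher in the mean and 2 in the pair. The vesicle transporter Slc18a2, at 4.89, 4.51 and 4.93 against 5.64, 4.72 and 6.10, alone had an unadjusted p under 0.05, at 0.71, and its pair difference was -0.21. The 14 cholinergic genes had a median of -0.18, and 0.03 in the pair.

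Among markers of other cells, endothelial genes were higher in the mean at all 13 members, against 58.3% of probes. Their median difference was 2.33, with 11 at an unadjusted p under 0.05, against 8.11% of probes in that direction, and 8 without overlap, against 12.6%. Within the pair all 13 were also higher, against 52.9% of probes, by a median of 0.45. Kdr, encoding the main receptor of VEGF, read 11.98, 12.29 and 12.23 in scramble, and 15.90, 13.24 and 14.33 in miR-324. It gave 2.32 (SE 0.78, limma adjusted p = 0.309), and 1.01 in the pair. Flt1, another VEGF receptor, read 9.59, 9.62 and 11.13 against 13.95, 12.15 and 12.37, with 2.71 and 1.02 in the pair. Cdh5, the cadherin of endothelial junctions, read 12.41, 12.28 and 15.59 against 16.80, 15.65 and 15.98, with 2.72 and 0.06. Thus scramble 3 lay with the scramble arrays for Kdr, between the groups for Flt1 and next to the miR-324 arrays for Cdh5. Without scramble 3 the list's median was 3.22, and 4 members passed, against 0.634% of all probes in that direction: Tek, Tie1, Cdh5 and Cldn5.

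Macrophage genes were lower in the mean at all 16 members, by a median of -2.31. Against miR-21 and miR-34a together the list's median was -1.49. Its median signals were 5.25, 5.135 and 5.31 in miR-21, and 7.755, 7.37 and 4.665 in miR-34a. Lyz2, a macrophage lysozyme, read 14.08, 13.98 and 7.20 in scramble, and 5.03, 6.15 and 6.17 in miR-324. Csf1r, the receptor on which macrophages depend, read 8.76, 8.64 and 4.24 against 5.03, 4.05 and 4.80, so scramble 3 was among the miR-324 values. Within the pair 13 of 16 were lower and the median was -0.495. Without scramble 3 the median was -3.50 and 6 members passed, against 1.32% of all probes in that direction, and against scramble 3 alone the median was -0.28. Fibroblast genes gave -1.08 over 15 measured, and -0.09 in the pair. Without miR-324 1 their median was -0.32, without scramble 1 -0.705, and with the suffix as a fixed block 0.03.

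Proliferation genes were lower in the mean at all 27 members, with a median of -1.14. Mki67, a marker of dividing cells, read 10.93, 10.49 and 7.02 in scramble, and 8.14, 8.34 and 8.78 in miR-324. It gave -1.06 (SE 1.11, limma adjusted p = 0.656), while the pair gave 1.32, the reverse. Over the list 15 were higher and 12 lower in the pair, with a median of 0.05. Against scramble 3 alone the median of the list was 0.33, without scramble 3 it was -1.94, and with the suffix as a fixed block 0.38. The lower mean thus came with scramble 1 and 2 and not with scramble 3.

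Cholesterol synthesis genes were lower in the mean at all 18 members, against 41.6% of probes, with a median of -1.06. At an unadjusted p under 0.05 stood 11, against 6.59% of probes in that direction, and 9 did not overlap, against 7.30%. Idi1, an isomerase of the mevalonate pathway, read 11.92, 12.16 and 11.44 in scramble, and 9.51, 11.03 and 10.51 in miR-324. Its difference was -1.49 (SE 0.43, limma adjusted p = 0.309), and -0.41 within the pair. Hmgcs1, which makes the substrate of the statin-sensitive step, read 15.18, 15.80 and 14.23 against 12.76, 14.23 and 14.05, and did not differ at all in the pair (0.00). Over the list the pair median was -0.005, with 9 lower and 8 higher. The low array was again miR-324 1, and without it the list gave -0.60. Against miR-21 and miR-34a together the list's median was -0.20. Its median signals were 10.15, 9.715 and 9.795 in miR-21, and 11.79, 11.825 and 10.305 in miR-34a, so low levels also occurred without miR-324.

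Interferon-induced genes ran in opposite directions in the group means and in the pair. Of 24 measured, 21 were higher in the mean, with a median of 1.10, and 7 had an unadjusted p under 0.05, against 8.11% of probes in that direction, but none had groups that did not overlap. All 24 were lower within the pair, against 46.3% of all probes, by a median of -0.68. The median was 0.60 without miR-324 1, and -0.04 against scramble 3 alone. Ifit3, an antiviral protein gene, read 7.85, 8.78 and 12.75 in scramble, and 14.54, 11.43 and 12.31 in miR-324. Its difference was 2.97 (SE 1.08, limma adjusted p = 0.313), against -1.32 within the pair. Irf7, the transcription factor that amplifies the response, read 5.38, 6.48 and 8.42 against 10.84, 6.56 and 8.79, with 1.97 and -1.86. The list's median signal was 9.02 in scramble 3 and 8.86 in miR-324 4, and miR-324 1 had the highest of the 6 arrays. Pituitary markers did likewise, with 10 of 12 higher in the mean and 11 of 12 lower in the pair.

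Genes of the miRNA pathway itself were the list whose median was the same in both measures, 0.51 between groups and 0.51 within the pair. Of 11 measured, 10 were higher in each, 7 did not overlap, against 12.6% of probes in that direction, and 3 had an unadjusted p under 0.05, against 8.11%. None passed the adjusted threshold. Tnrc6a, which links Argonaute to the decay machinery, read 8.55, 8.61 and 8.77 in scramble, and 9.85, 9.23 and 9.34 in miR-324. It differed by 0.83 (SE 0.27, limma adjusted p = 0.309), and by 0.46 in the pair. Ago2, the slicing Argonaute, read 11.51, 11.74 and 11.26 against 12.15, 11.90 and 12.06, with 0.53 (SE 0.23, limma adjusted p = 0.322) and 0.64. Dicer1, which cuts hairpins into mature miRNAs, read 8.32, 8.47 and 7.96 against 8.80, 8.80 and 8.66, with 0.50 (SE 0.35, limma adjusted p = 0.492) and 0.84. In all 3 genes scramble 3 lay with the other scramble arrays. Ago4 was the exception, at 5.38, 5.87 and 5.03 against 5.89, 4.62 and 5.16. Against scramble 3 alone the list gave 0.60. Against miR-21 and miR-34a together the list's median was -0.04.

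Over the 35 lists, 14 had a median at least 0.5 from 0 between groups and 4 within the pair. The median of scramble 3 lay nearer to that of the miR-324 arrays than to that of scramble 1 and 2 in 27. The lists at least 0.5 from 0 in the pair were the interferon and pituitary genes, which were lower, and the miRNA pathway and Y-linked genes, which were higher. The Y-linked list held 3 measured genes, 2 higher and 1 lower in the pair. Its median signal was 2.93 in scramble 3 and 2.96 in miR-324 2, both inside the floor range. Collagen genes had a pair median of 0.41, with 17 of 22 higher, and 0.24 between groups, which became 0.04 without miR-324 1.

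**Figure D4:**
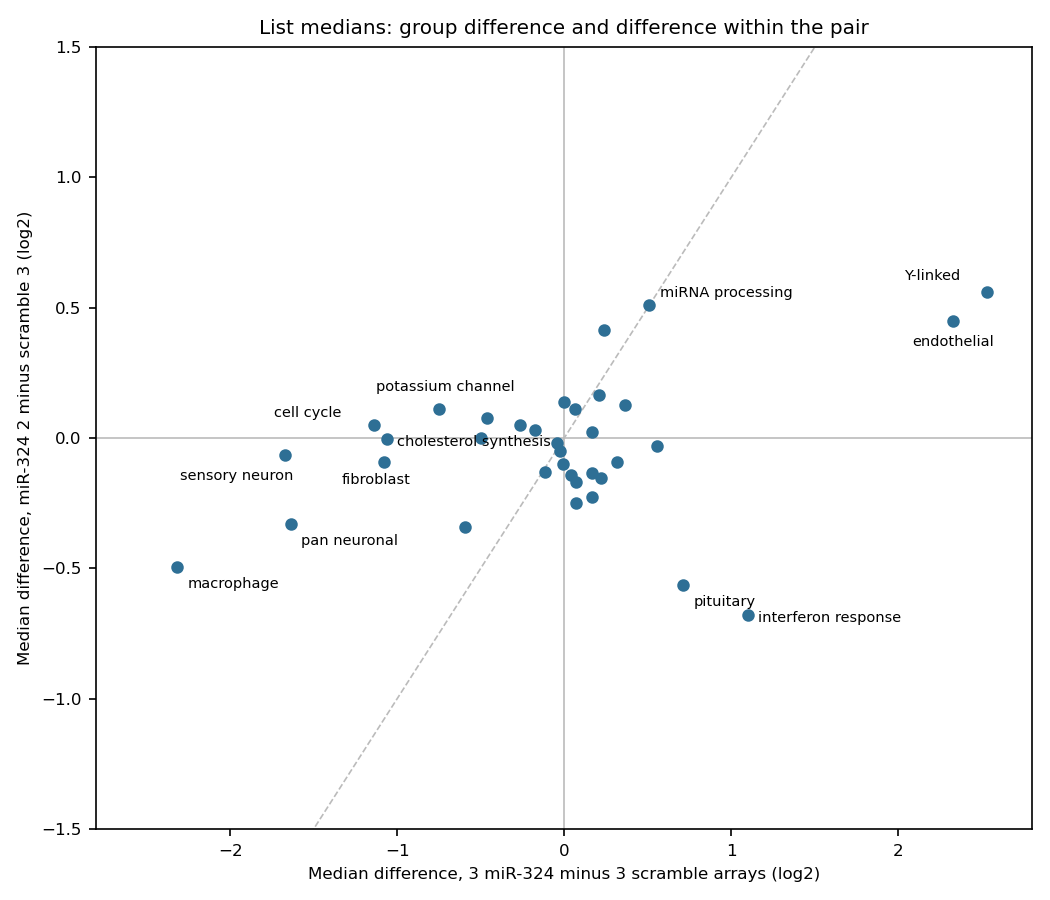
Median log2 difference of each gene list between 3 miR-324 and 3 scramble arrays (horizontal axis) and within the pair with a shared title suffix (vertical axis, 1 array against 1); each point is a list, and the dashed line marks equal values. Most points lie close to the horizontal line at 0, miRNA processing lies on the dashed line at 0.51, and interferon response lies at 1.10 and -0.68.

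Some genes with large differences in both measures are given as examples chosen after their values were seen. At 205 probes (1.05%) the groups did not overlap and the pair was at least 2-fold higher, and at 82 (0.419%) at least 2-fold lower. Cyp1a1, the cytochrome induced through the aryl hydrocarbon receptor, read 7.74, 9.36 and 9.28 in scramble, and 11.45, 11.55 and 10.99 in miR-324. It gave 2.54 between groups (limma adjusted p = 0.309) and 2.27 within the pair. Homer2, a postsynaptic scaffold that binds Shank proteins, read 5.46, 5.31 and 5.52 against 4.35, 4.04 and 3.85. It gave -1.35 and -1.48, opposite to Shank3, with all miR-324 values inside the floor range. Vip, a neuropeptide gene induced after nerve injury, read 3.56, 3.16 and 3.37 in scramble, against 5.39, 8.32 and 3.27 in miR-324. Its pair difference of 4.95 belonged to 1 array, as miR-324 4 was at the scramble level.

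The last comparison left scramble out and set miR-324 against the mean of miR-21 and miR-34a, 3 arrays each. It uses the same miR-324 arrays, so it is no independent repeat. limma called 135 genes (0.690%), 75 higher (0.383%) and 60 lower (0.307%) with miR-324. The count depended on every miR-324 array, since leaving out any 1 of the 3 gave 0. Of the 135, 129 were also called against miR-21 alone, where 481 were called (2.46%). Against miR-34a alone limma called 0 (0%), with 2544 at an unadjusted p under 0.05 (13.0%). In the comparison with both together 2943 had an unadjusted p under 0.05 (15.0%). Endothelial medians were 9.88, 9.67 and 12.85 in miR-34a 1, 2 and 3, and pan-neuronal medians 13.44, 13.22 and 9.78. The titles of miR-34a 1 and 2 carry the suffix of scramble 1 and 2, and that of miR-34a 3 carries none. The 0 against miR-34a alone therefore does not show that these groups were alike, and the part of the suffix in it was not tested. At 117 of the 135, scramble 3 lay nearer to the miR-324 mean than to the mean of the other miRNAs, and at 24 the mean of scramble 1 and 2 did.

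Of the 20 genes described first, 8 were past the threshold here, against 0.690% of all probes. Notch4, Shank3, Dgat1, Nod2 and Efnb2 were higher and Tpmt, Plcd4 and Rab39 lower. The 20 were picked on the same miR-324 arrays, so this count follows in part from the choice of genes. Shank3 read 4.48 to 5.11 in miR-21 and 4.68 to 6.24 in miR-34a, under all miR-324 arrays. It was higher with miR-324 by 2.14 (SE 0.33, limma adjusted p = 0.039). Notch4 was higher by 1.64 (SE 0.24, limma adjusted p = 0.035), and Efnb2 by 1.62 (SE 0.29, limma adjusted p = 0.040). Tpmt was lower, at -1.17 (SE 0.20, limma adjusted p = 0.039), and Plcd4 at -1.96 (SE 0.36, limma adjusted p = 0.040). For these 8 genes the scramble mean and the mean of the other miRNAs lay on the same side of the miR-324 mean. Ctdsp1, which had the largest difference of the higher genes against scramble, gave 0.78 here (SE 0.35, limma adjusted p = 0.316).

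Called lower with miR-324 were 3 of 22 collagen genes, 2 of 15 fibroblast genes, 1 of 12 myelinating Schwann cell genes and 0 of 14 satellite glia genes, against 0.307% of all probes. Col1a2, a chain of type I collagen, read 10.22, 8.31 and 9.40 in miR-324 1, 2 and 4, against 15.10 to 15.45 in miR-21 and 11.12 to 12.27 in miR-34a. It was lower, at -4.21 (SE 0.72, limma adjusted p = 0.039), and it counts in both the collagen and the fibroblast list. Postn, the matrix protein periostin, was lower, at -3.67 (SE 0.75, limma adjusted p = 0.049), and Pmp22, a myelin protein gene of Schwann cells, at -1.88 (SE 0.33, limma adjusted p = 0.039). Scramble 3 read 8.40 for Col1a2 and 9.35 for Postn, in or next to the miR-324 range for each. Col5a1, Col5a2, Runx1, Lif, Cenpf and Vldlr were also lower. Runx1 specifies pain neurons, and Lif is a cytokine of nerve injury.

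Higher with miR-324 were the pituitary hormone genes Prl and Cga, the opioid precursor gene Penk, Ly6c1 of endothelium, Sema3f of axon guidance, and 7 of the 24 interferon genes, against 0.383% of all probes. Prl was higher by 10.99 (SE 1.81, limma adjusted p = 0.039), with 3.37 to 4.22 in the 6 arrays of the other miRNAs, inside the floor range. Scramble 3 read 14.92 for this gene, so an array without miR-324 held it at the same level. Ifit1 was higher by 3.46 (SE 0.60, limma adjusted p = 0.039), with 11.28, 9.45 and 9.07 in miR-324, 4.19 to 5.52 in miR-21 and 7.59 to 8.52 in miR-34a. Scramble 3 read 9.86, between the miR-324 arrays. Irf7, Usp18, Bst2, Oasl2, Ifih1 and Xaf1 were the other called interferon genes, by 2.19 to 4.03. All 7 were lower within the pair.

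**Figure D5:**
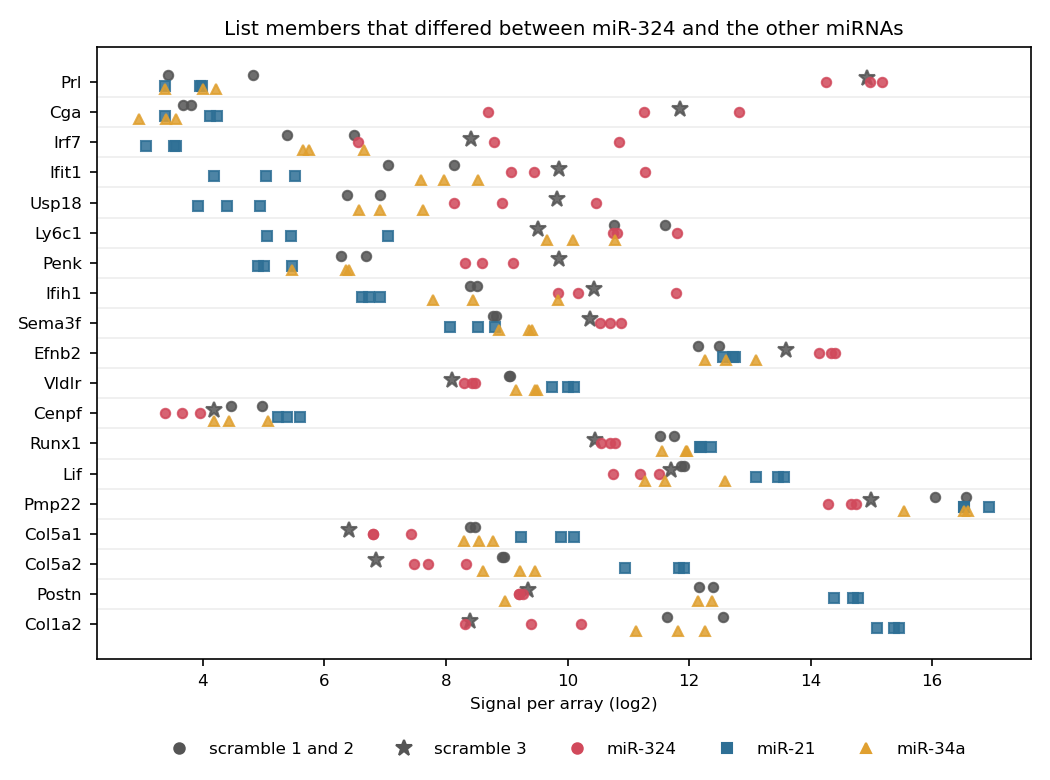
Log2 signal of each of 12 arrays (horizontal axis) for genes of the lists past the threshold between miR-324 and the mean of miR-21 and miR-34a; grey circles are scramble 1 and 2, the grey star scramble 3, red miR-324, blue miR-21 and yellow miR-34a. The star lies in or next to the red marks for Prl, Postn and Ifit1, and the yellow marks lie between red and blue for Ifit1 and Usp18.

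The promoters of 2 of these interferon genes are shown because interferon-induced genes share a short element, the interferon-stimulated response element, read here as GAAA, any 2 bases, then GAAA, on either strand and with overlaps counted, in capitals below. Each is 300 bases, 250 before the start to 50 after, 5′ to 3′ on the gene's strand, from RefSeq on GRCm38.p6. Ifit1 lies at chr19:34640639-34640938 on the plus strand and Bst2 at chr8:71537423-71537722 on the minus strand.
Ifit1: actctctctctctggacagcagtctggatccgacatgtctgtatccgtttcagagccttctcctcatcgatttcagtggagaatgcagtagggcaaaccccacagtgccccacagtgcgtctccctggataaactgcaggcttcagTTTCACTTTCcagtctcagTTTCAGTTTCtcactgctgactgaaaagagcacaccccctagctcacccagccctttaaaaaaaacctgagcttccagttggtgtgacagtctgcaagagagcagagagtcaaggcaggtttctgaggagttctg
Bst2: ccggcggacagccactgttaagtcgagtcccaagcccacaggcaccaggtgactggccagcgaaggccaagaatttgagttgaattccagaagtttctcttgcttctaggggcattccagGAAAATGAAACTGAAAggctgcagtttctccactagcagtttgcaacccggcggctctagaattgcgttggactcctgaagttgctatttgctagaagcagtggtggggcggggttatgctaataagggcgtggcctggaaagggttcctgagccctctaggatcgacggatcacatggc
Ifit1 held 2 matches, both on the opposite strand, and Bst2 held 2 that overlap. Over all promoters of this length, 1131 of 32851 (3.44%) held a match, belonging to 1079 of 27025 genes (3.99%). Of the measured interferon genes, 12 of the 19 in the table held one (63.2%), and of the called ones 3 of 6, the third being Ifih1. Irf7, Oasl2 and Xaf1 held none in this window. A match is a description of the letters, not a site in use.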

How the data were processed

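Total RNA from cultured TG neurons was measured on 12 Clariom S Mouse arrays. The deposited log2 values were made by the authors with Transcriptome Analysis Console 4.0 and RMA, per the submitters' processing notes. RMA gives all arrays nearly the same distribution, so a change in total RNA is lost. Arrays have no read depth, and their number limits precision. Of 22206 probes, 19572 had 1 gene symbol in the platform table and 2634 were unnamed here.

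limma 3.58.1 (R 4.3.3; lmFit, contrasts.fit, eBayes) fitted 4 group means over 12 arrays, leaving 8 residual degrees of freedom. Tests were two-sided, with Benjamini-Hochberg adjustment over the 19572 probes and a threshold of 0.05. The pair difference has no test. The script was tested on simulated data.

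Named were the 10 higher and 10 lower genes without group overlap that passed the threshold or else had the smallest unadjusted p, up to 4 members past the threshold of each of 35 gene lists, and 10 genes always given. The brightest probe of a symbol was used. The members and lists were chosen with earlier results of these data known, and other list members were picked as examples after their values were seen. Alternatives were quantile normalization again, centring, bright probes, a variance trend, array weights, blocks, a Y-linked covariate and arrays left out.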

Additional observations from a re-analysis of the deposited data

How the results depend on the processing

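The comparison with scramble gave 0 called genes in the reported fit, after quantile normalization again, centring, with bright probes only, a variance trend, only the 6 arrays compared, the number in the title as a replicate block, the suffix as a fixed or random block, Eif2s3y as a covariate and without scramble 1 and 2 together. It gave 2589 with array weights and 1148 when an unadjusted p under 0.05 and a 2-fold change were asked for instead. Leaving out 1 array gave 0 to 383, the latter without scramble 3.

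The comparison with the mean of miR-21 and miR-34a gave 135 genes. It gave 171 after quantile normalization again, 132 centred, 155 with bright probes and 129 with a variance trend. It gave 2221 with array weights, 425 and 238 with the suffix as a fixed and a random block, 272 with the replicate block, 835 with Eif2s3y as a covariate, 481 against miR-21 alone and 0 against miR-34a alone; the blocks, the covariate and the single miRNAs were chosen after seeing the data. Without each miR-324 array in turn it gave 0 (range 0 to 0). The cause of these shifts was not tested.

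Same-numbered arrays did not deviate together from their group means (correlations 0.048 and 0.025), nor did the pair (0.0086). The numbers were therefore not taken to pair the samples. What scramble 3 shared with all miR-324 arrays drops out of this measure, so it cannot show that the pair is unrelated. In the comparison with scramble, where the reported fit called no gene, some directions turned. Of the 30 single genes followed 9 did so, in 21 values. With the suffix as a fixed block these were Kcnd2 at -0.01, Th at 0.066, Eif2s3y at -0.47, Snap25 at 0.013 and Mki67 at 1.67. Within the pair they were Gli1 at -0.20, Prl at -0.66, Gh at -1.02 and Mki67 at 1.32, and without scramble 1 and 2 together Prl at -0.12, Gh at -2.86 and Mki67 at 1.40. Smo gave 0.044 after quantile normalization again, 0.015 centred and 0.046 with array weights, and -0.17 to 0.05 when 1 array was left out. Kcnd2 gave -0.046 after quantile normalization again and -0.0076 with Eif2s3y as a covariate, and Mki67 0.24 with that covariate and 0.14 with the suffix as a random block. Medians of 28 of the 35 lists turned under at least 1 alternative, in 104 values, 17 of them with the suffix as a fixed block and 16 within the pair. The cause was not tested. Of the other values of these genes, 448 kept their side of the threshold or stayed within the spread, 17 moved beyond it and 41 passed the threshold; of the list medians 580 stayed within the spread and 50 moved beyond it. The median over all genes was 0.09 as reported; quantile normalization again made it 0.04, and centring 0.155.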
